A study of Mus musculus with 10 samples.

Results

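The genes described here are Pax7, Myf5, Myod1 and Myog, the transcription factors that mark muscle stem cells and carry them into differentiation. They are 4 of the 18256 genes listed in the deposited CUT&RUN tables, and were followed through every peak listed with their symbol and every peak listed with no gene that lies within 50 kb of the gene body. The H4K20me1 table holds 44925 peaks, of which 6 were listed with a member (5 with Pax7 and 1 with Myf5) and 6 lay near a member with no gene. The table for RNA polymerase II phosphorylated at serine 2 (Pol II S2P) holds 51322 peaks, of which 10 were listed with a member (7 with Pax7, 2 with Myod1 and 1 with Myog) and 25 lay near one with no gene. H4K20me1 therefore had a listed value for 2 members and Pol II S2P for 3, and only Pax7 was listed for both.

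CUT&RUN cuts and releases the DNA bound by an antibody in permeabilised cells. It was performed in cultured mouse muscle stem cells (MuSCs), purified with magnetic beads and grown on Matrigel in serum with LIF and bFGF. Ctrl cells came from Pax7CreERT/Suv4-20h1WT mice and sKO cells from Pax7CreERT/Suv4-20h1KO mice, in which Suv4-20h1 (Kmt5b) is removed by a tamoxifen-inducible Cre expressed from Pax7. Ctrl and sKO mice were both given tamoxifen. Both genotypes thus carry the Cre allele at Pax7, one of the genes measured, and its effect cannot be told apart from the values of Pax7 in either genotype. Each genotype had 2 libraries per antibody, named in the study as biological replicates, while the 2 IgG libraries were left aside as not analysed here. The values are scores, whole numbers for the coverage of each peak normalised to a Drosophila spike-in and not divided by peak length. Summed over all peaks they came to 15218720 and 20432644 (Ctrl) against 32194136 and 35046570 (sKO) for H4K20me1, and to 3257665 and 4243685 against 4885638 and 3435908 for Pol II S2P. The depth in reads behind a score is unknown.

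PAX7 is the paired-box factor that specifies and maintains satellite cells. MYF5 and MYOD1 are basic helix-loop-helix factors that commit cells to the myoblast state, and MYOG, a later factor of the same family, drives terminal differentiation and fusion. The basic helix-loop-helix factors pair with E proteins and bind E-boxes (CANNTG). KMT5B methylates H4K20me1 to H4K20me2, so H4K20me1 is its substrate, and serine 2 phosphorylation marks elongating polymerase, which usually peaks towards and beyond the 3′ end of a gene.

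The sequences below are 2 promoter windows and the middles of 2 Pol II S2P peaks upstream of Myod1 and Pax7, with E-boxes in capitals. Whether the upstream peaks are regulatory DNA of these genes was not tested. The Myog window (chr1:134289754-134289988, plus strand) ends at the last base before the deposited gene start, inside the Pol II S2P peak listed with Myog. The Myf5 window (chr10:107486150-107486384, minus strand) ends 15 bases before the deposited start, inside the H4K20me1 peak listed with Myf5. The other lines are the middle 300 bases of 2 Pol II S2P peaks with no gene. The first, 23.2 kb upstream of Myod1 (chr7:46353102-46353401, plus strand), scored lower in both sKO libraries. The other, 7.80 kb upstream of Pax7 (chr4:139841174-139841473, plus strand), scored higher in both. Neither peak was called on the deposited scores. The Pax7 peak had a Ctrl mean of 24.5 and passed the filter on low values only through sKO, which fixed its direction.
Myog promoter: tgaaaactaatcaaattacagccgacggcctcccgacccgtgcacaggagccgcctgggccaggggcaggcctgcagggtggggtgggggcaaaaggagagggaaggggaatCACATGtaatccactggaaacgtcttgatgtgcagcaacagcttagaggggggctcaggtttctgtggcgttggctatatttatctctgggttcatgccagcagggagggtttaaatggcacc
Myf5 promoter: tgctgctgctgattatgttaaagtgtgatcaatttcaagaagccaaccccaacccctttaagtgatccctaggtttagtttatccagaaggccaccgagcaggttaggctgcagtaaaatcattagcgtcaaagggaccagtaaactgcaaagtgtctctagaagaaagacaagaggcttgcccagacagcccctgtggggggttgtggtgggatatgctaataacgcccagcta
Myod1 upstream peak: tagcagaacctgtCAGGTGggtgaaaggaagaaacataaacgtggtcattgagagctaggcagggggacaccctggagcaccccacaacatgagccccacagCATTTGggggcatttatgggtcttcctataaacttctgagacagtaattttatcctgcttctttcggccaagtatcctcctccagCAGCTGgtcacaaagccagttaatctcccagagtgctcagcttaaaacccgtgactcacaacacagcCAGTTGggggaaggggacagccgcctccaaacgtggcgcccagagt
Pax7 upstream peak: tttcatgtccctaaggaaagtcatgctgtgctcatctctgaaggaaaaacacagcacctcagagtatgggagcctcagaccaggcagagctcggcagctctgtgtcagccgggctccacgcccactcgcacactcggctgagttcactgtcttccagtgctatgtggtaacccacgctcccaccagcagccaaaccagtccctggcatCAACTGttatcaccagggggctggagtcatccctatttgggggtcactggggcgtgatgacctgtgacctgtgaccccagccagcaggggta

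The promoter windows come from RefSeq promoters of GRCm38.p6, which held 3 of the 4 members, and the peak windows from the GRCm38.p6 genome. CANNTG reads the same on both strands. The Myog window held 1 E-box, CACATG, which begins 123 bases before the gene start, and the Myf5 window held 0. Over all 32851 promoter windows of 235 bases, 64.1% held at least 1. The Myod1 upstream window held 4 E-boxes, a number reached or passed by 11.3% of the middle 300 bases of all 50698 autosomal Pol II S2P peaks. The middle 300 bases of the other Myod1 upstream peak that was called lower on equal totals, at 38.7 kb, held 1 (CAAATG). The Pax7 upstream window held 1, CAACTG, where 80.9% of the peaks held 1 or more. Distal enhancers upstream of Myod1 are known, but whether this peak coincides with one was not tested.

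H4K20me1 over the members was higher in sKO than in Ctrl. Pax7 (ENSMUSG00000028736, chromosome 4, 139737062 to 139833528, minus strand) summed to 533 and 708 in Ctrl against 1749 and 1968 in sKO. Myf5 (ENSMUSG00000000435, chromosome 10, 107482908 to 107486134, minus strand) scored 56 and 67 in Ctrl against 284 and 442 in sKO. The Myf5 value is that of 1 peak, which has 42.5% of its length in Myf5 and also overlaps the predicted gene Gm44403. In both genes the sKO libraries lay above both Ctrl libraries without overlap, as they did in 96.5% of the 13750 autosomal genes tested. The mean rose from 620.5 ± 124 to 1859 ± 155 for Pax7 (SD, n = 2), a log2 fold change of 1.59 ± 0.27 (SE) with an adjusted p of 2.96e-08 from limma. For Myf5 it rose from 61.5 ± 7.78 to 363.0 ± 112 (SD, n = 2), a log2 fold change of 2.51 ± 0.37 with an adjusted p of 2.21e-10 from limma. Both were called higher (adjusted p below 0.1 with a log2 fold change above 0.5), and so were 92.3% of all genes tested, so the calls themselves do not set the members apart.

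The size of the rise differed between the members. The median log2 fold change over all genes tested was 1.11, and Pax7 stood at percentile 84.2 of that distribution and Myf5 at percentile 98.9. Scaled to equal totals, which removes the general rise and leaves a median of 0.13, Pax7 (0.61, adjusted p 2.43e-07, limma) and Myf5 (1.54, adjusted p 6.92e-06) remained called higher, with 20.8% of all genes. The Pax7 sum divided by the Myf5 sum within a library, on the log2 scale, was 3.23 and 3.38 in Ctrl against 2.62 and 2.15 in sKO. The ratio was thus lower by 0.92 in sKO with no overlap, although the exact two-sided permutation test of 2 against 2 libraries cannot give a p below the 0.333 found here.

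**Figure D1:**
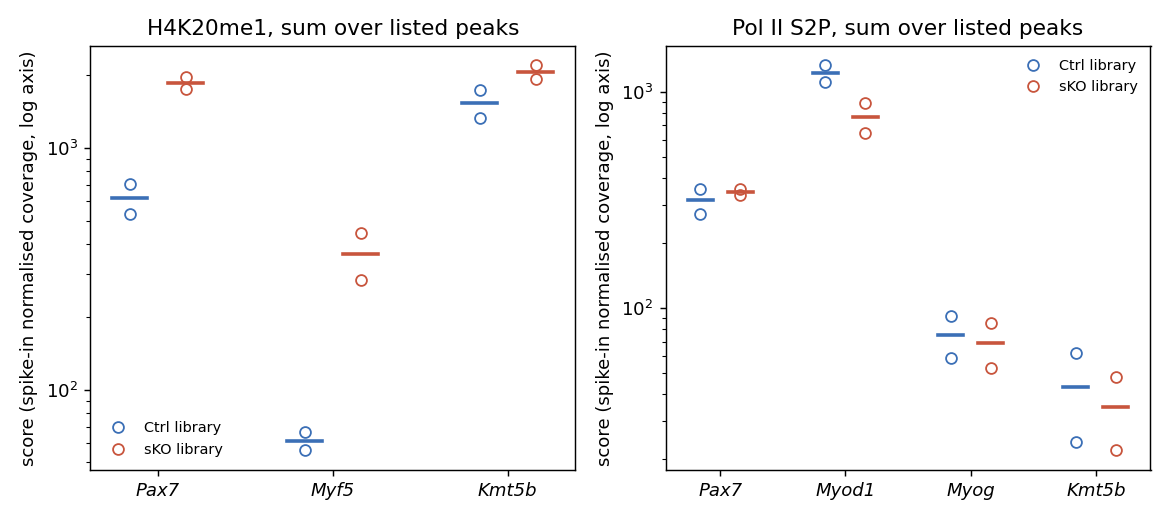
Score summed over all peaks listed with each gene (log axis) in the 2 Ctrl and 2 sKO libraries, for H4K20me1 and Pol II S2P, with Kmt5b, the deleted gene, beside the members. Open circles are libraries and bars are means of 2; for H4K20me1 both sKO circles lie above both Ctrl circles in Pax7 and Myf5, and for Pol II S2P both sKO circles lie below both Ctrl circles in Myod1 alone of the members.

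Per kb of peak, the members began from low H4K20me1 in Ctrl and lay nearer to the level of other genes in sKO. Pax7 had 14.8 and 19.7 per kb in Ctrl and 48.6 and 54.7 in sKO, which is percentile 17.9 of all genes tested by the Ctrl mean and percentile 60.1 by the sKO mean. Myf5 had 7.37 and 8.82 per kb in Ctrl and 37.4 and 58.2 in sKO, percentile 0.756 and percentile 31.8. Myf5 lay below Pax7 per kb in 3 of the 4 libraries and above it in sKO replicate 2, so their order in sKO was not beyond the spread. The levels of all genes were also closer together in sKO, where the upper quartile was 1.18 times the lower quartile in each library, against 1.51 and 1.54 times in the Ctrl libraries. Kmt5b, the targeted gene, moved the other way in rank, from percentile 91.5 in Ctrl (29.7 and 38.8 per kb) to percentile 22.4 in sKO (43.2 and 49.0 per kb).

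**Figure D2:**
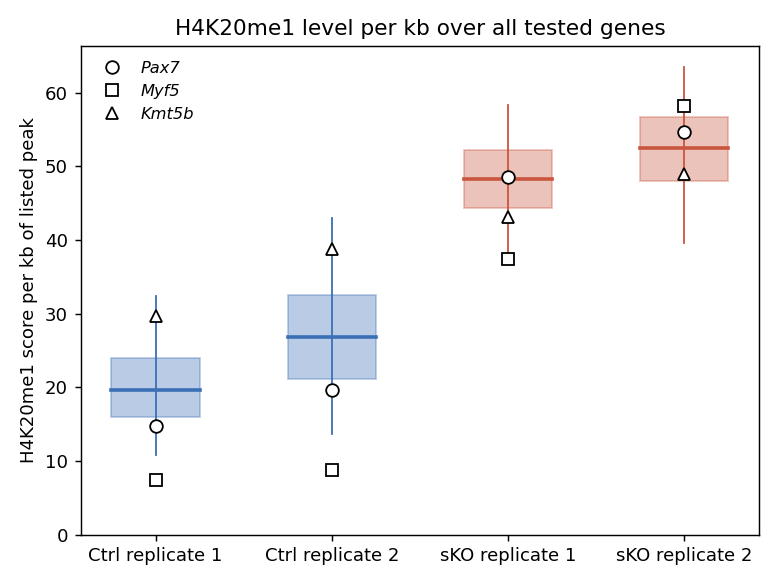
H4K20me1 score per kb of listed peak in each library over the 13750 genes tested. Boxes span the quartiles with the median as a line and thin lines reach from the 5th to the 95th percentile; Myf5 lies below that range in both Ctrl libraries and inside it in both sKO libraries, while Kmt5b lies above the boxes in Ctrl and near their lower edge in sKO.

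Peak by peak, all 12 H4K20me1 peaks at the members passed the filter on low values and were called higher in sKO, as were 90.1% of the 40902 peaks tested. In all 12 the genotypes did not overlap, which held with sKO higher for 93.9% of all peaks. On equal totals 6 of the 12 were still called higher, against 22.6% of all peaks. Their median log2 fold change was 1.76, beside 1.14 over all peaks tested. The Myod1 and Myog peaks among the 12 had Ctrl means under 50, so they passed the filter through sKO and had to be higher there. The Myod1 peak was among the 6 called on equal totals. All tested peaks were also ranked by Ctrl mean into 5 groups. The median log2 fold change was 1.62 in the group with the lowest Ctrl means (5.50 to 88.0). In that group, peaks with a Ctrl mean under 50 passed the filter through sKO and had to be higher there. The groups with Ctrl means from 88.0 upward had medians of 1.24, 1.17, 1.09 and 0.88, in rising order of Ctrl. Ctrl is also part of the fold change, so the order of the groups cannot show whether low Ctrl peaks truly rose more.

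The 5 Pax7 peaks lay between 31.7 and 70.7 kb downstream of the start, within the gene. The peak centred at 64.4 kb scored 56 and 72 in Ctrl against 314 and 275 in sKO, with a log2 fold change of 2.19 ± 0.38 (SE). At 31.7 kb the scores were 50 and 55 against 146 and 264, and at 39.7 kb 144 and 181 against 506 and 612. These 3 peaks were also called higher on equal totals, although the 31.7 kb peak (log2 fold change 1.88) was not called without sKO replicate 2 (1.46). The peaks at 52.8 kb (225 and 324 against 597 and 691) and 70.7 kb (58 and 76 against 186 and 126) rose by 1.25 and 1.19 on the log2 scale, close to the median of all peaks, and were not called on equal totals, nor was the latter without sKO replicate 1 (0.91). Only the 52.8 kb peak overlapped an annotated Pax7 exon.

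Around Pax7, the 3 upstream peaks rose less than most of the gene's own. They were centred 20.6, 34.1 and 53.1 kb before the start and had log2 fold changes of 1.22, 0.76 and 0.56. The farthest of them was the broadest and highest, with scores of 710 and 1049 in Ctrl against 1288 and 1250 in sKO, and stood at percentile 8.81 of all peaks. Leaving out Ctrl replicate 1 lowered its log2 fold change to 0.27, and that of the 34.1 kb peak to 0.36, and neither was then called. Leaving out either sKO library also ended both calls. By contrast the peak 23.1 kb beyond the gene end scored 64 and 70 in Ctrl against 211 and 341 in sKO, with a log2 fold change of 1.99 ± 0.38. The difference between the upstream and the other Pax7 peaks was not tested. With the 4 peaks of no gene added to the gene sum, the log2 fold change of Pax7 was 1.13 in place of 1.59.

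The starts of Pax7, Myod1 and Myog lay outside H4K20me1 peaks. The nearest peak edge was 12.1 kb away for Pax7, 2.67 kb for Myod1 and 2.81 kb for Myog, while the Myf5 start lay inside its peak (107479600 to 107487199), which spans the whole gene. Of 20807 autosomal protein-coding gene starts, 42.9% lay in an H4K20me1 peak. Myod1 (ENSMUSG00000009471, chromosome 7, 46376474 to 46379099, plus strand) and Myog (ENSMUSG00000026459, chromosome 1, 134289989 to 134292548, plus strand) had no H4K20me1 peak over any part of the gene.

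Myod1 and Myog each had 1 H4K20me1 peak of no gene in the flank. The Myod1 peak, centred 6.77 kb upstream (46365600 to 46373799), scored 39 and 52 in Ctrl against 304 and 423 in sKO. Its log2 fold change of 2.97 ± 0.39 (adjusted p 4.76e-12, limma) was the highest of the 12 member peaks and stood at percentile 99.6 of all peaks. A second low peak beyond it, listed with 1700025L06Rik and centred 26.7 kb upstream of Myod1, rose from 10 and 17 to 160 and 166. The Myog peak began just past the gene end, centred 1.45 kb beyond it, and scored 27 and 54 in Ctrl against 160 and 107 in sKO, with a log2 fold change of 1.75 ± 0.53. It was not called on equal totals, nor without sKO replicate 1. The Ctrl means of these 3 peaks were under 50, so they passed the filter through sKO and had to be higher there.

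The other H4K20me1 peaks within 50 kb were listed with neighbouring genes and were all called higher. They were 2 peaks of the potassium channel gene Kcnc1 downstream of Myod1 (log2 fold changes of 1.35 and 0.72), 1 peak of the adenosine receptor gene Adora1 upstream of Myog (1.30), 2 of Ppfia4 downstream of Myog (1.44 and 1.70) and 1 of Gm38117 downstream of Myf5 (1.77). The Myod1 upstream peak rose more than the Kcnc1 peaks on the other side of the gene, where Ctrl already scored 567 and 678 in the larger one. The Myod1 peak had passed the filter through sKO, and the difference between these peaks was not tested.

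**Figure D3:**
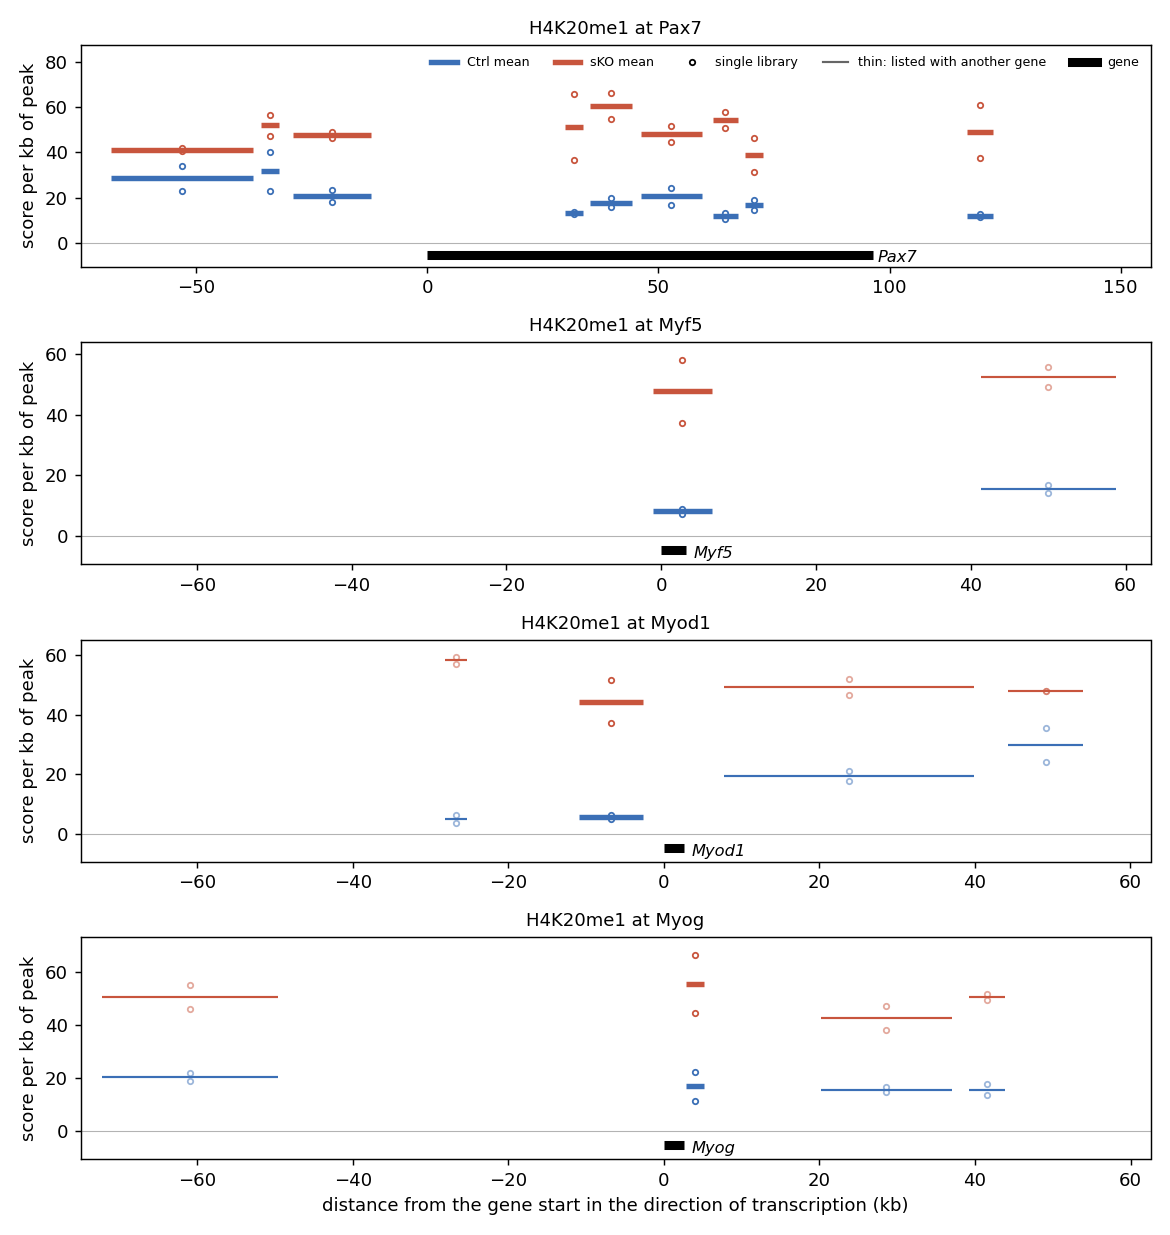
H4K20me1 peaks at the 4 members by distance from the gene start in the direction of transcription (kb), with the score per kb of peak on the vertical axis. Horizontal bars span each peak at the mean of 2 libraries, circles are libraries, thin bars are peaks listed with another gene and the black bar is the gene; the sKO marks lie above the Ctrl marks at every peak.

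Pol II S2P overlapped between genotypes at Pax7 and Myog and was lower in both sKO libraries at Myod1, although no member passed the test. The 2 Myod1 peaks summed to 1329 and 1110 in Ctrl against 887 and 649 in sKO, so both sKO libraries lay below both Ctrl libraries. The same order was found in 4.52% of the 8531 genes tested. The mean was 1219.5 ± 155 in Ctrl against 768.0 ± 168 in sKO (SD, n = 2), a ratio of Ctrl to sKO of 1.59. The log2 fold change of -0.68 ± 0.43 (SE) stood at percentile 0.404 of all genes but did not pass the limma test (p 0.114, adjusted p 1.0). No gene passed it (0% called, with 100 genes at an unadjusted p under 0.05), and no other tool was run.

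Library totals for Pol II S2P differed within both genotypes. On equal totals Myod1 was called lower (log2 fold change -0.82, adjusted p 4.49e-04, limma), as were 0.856% of all genes. Quantile normalisation gave -0.81 with an adjusted p of 0.003. As a share of all Pol II S2P signal, the Myod1 peaks held 0.0408% and 0.0262% in Ctrl against 0.0182% and 0.0189% in sKO. The groups did not overlap, but Ctrl replicate 1 stood apart from the other libraries. With 1 library left out the log2 fold change on the deposited scale ran from -0.90 (without sKO replicate 1) to -0.45 (without sKO replicate 2).

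Pax7 had Pol II S2P sums of 274 and 356 in Ctrl against 355 and 332 in sKO over 7 peaks. The groups overlapped, and the log2 fold change of 0.14 ± 0.42 was not called. It was -0.0036 on equal totals and -0.05 without Ctrl replicate 1. Myog, with 1 peak over its start, scored 59 and 92 in Ctrl against 85 and 53 in sKO. These groups overlapped too, and the log2 fold change of -0.13 ± 0.47 turned to 0.18 without Ctrl replicate 2 and to 0.20 without sKO replicate 2. Myf5 had no listed Pol II S2P peak and none over the gene.

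Per kb of peak, Myod1 carried the most Pol II S2P of the members in each of the 4 libraries. It had 327 and 273 per kb in Ctrl and 218 and 160 in sKO, and its rank among all genes was percentile 98.1 by the Ctrl mean and percentile 78.8 by the sKO mean. Myog had 115 and 179 per kb in Ctrl and 165 and 103 in sKO, and Pax7 101 and 132 in Ctrl against 131 and 123 in sKO. Pax7 lay below Myog in 3 libraries and above it in sKO replicate 2, so these 2 members were not separated beyond the spread. Pax7 stood at percentile 25.4 in Ctrl and percentile 24.0 in sKO.

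Ratios within a library, which no scale between libraries can alter, separated the genotypes for Myod1 against Pax7. On the log2 scale the Pax7 sum relative to that of Myod1 was -2.27 and -1.64 in Ctrl and -1.32 and -0.96 in sKO, higher by 0.81 in sKO and without overlap. The exact two-sided permutation p was 0.333, the smallest that 2 against 2 libraries can give, and 0.667 after adjustment over the 3 pairs of members. Pax7 relative to Myog (2.20 and 1.94 against 2.05 and 2.62) and Myod1 relative to Myog (4.47 and 3.58 against 3.37 and 3.59) overlapped between genotypes, each with an exact p of 0.667.

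The difference at Myod1 was larger past the gene than at its start. The start peak (46375913 to 46376872) scored 275 and 217 in Ctrl against 214 and 164 in sKO. The other peak begins over the last bases of the gene and runs beyond it (46379014 to 46382113), and it scored 1054 and 893 in Ctrl against 673 and 485 in sKO. Both peaks were lower in both sKO libraries, which holds for 6.84% of the 22353 peaks tested. Their log2 fold changes were -0.38 ± 0.39 and -0.76 ± 0.40 (SE), neither called, and the second stood at percentile 0.342. Within a library, the peak past the end was 3.83 and 4.12 times the start peak in Ctrl and 3.14 and 2.96 times in sKO, with no overlap and an exact two-sided permutation p of 0.333. This ratio was chosen after its values were seen.

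Upstream of Myod1, Pol II S2P covered 6 peaks of no gene between 5.26 and 38.7 kb from the start. The peak at 38.7 kb scored 259 and 280 in Ctrl against 223 and 173 in sKO, and the peak at 23.2 kb, whose sequence is shown above, 266 and 294 against 253 and 158. Both were lower in both sKO libraries, with log2 fold changes of -0.45 ± 0.39 and -0.48 ± 0.39. The 2 further peaks that passed the filter overlapped between genotypes, at 34.8 kb (294 and 292 against 331 and 218) and 26.1 kb (186 and 211 against 231 and 185). The lower sKO scores were therefore not shared by all upstream peaks. On equal totals the peaks at 38.7 kb, at 23.2 kb and past the gene end were called lower, 3 of the 6 Myod1 peaks tested, against 1.19% of all peaks.

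Over all members, 20 of the 35 Pol II S2P peaks passed the filter on low values and 0 were called, where 0.0492% of all peaks tested were. Of the 20, 6 were lower in both sKO libraries, where 6.84% of all peaks tested were, and 4 of the 6 lay at Myod1 and 2 at Pax7. Another 4 of the 20 were higher in both sKO libraries, all at Pax7, where 16.7% of all peaks tested were. Of these 4, those at 7.80 kb upstream and at 36.1 kb had Ctrl means under 50 and passed the filter through sKO, which fixed their direction. The median log2 fold change of the 20 was -0.11, beside 0.11 over all peaks.

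At Pax7, Pol II S2P peaks were small and scattered along the gene. The peak at the start scored 45 and 69 against 55 and 60. Within the gene, those at 28.2 kb (66 and 47 against 94 and 82) and 36.1 kb (32 and 52 against 73 and 65) were higher in both sKO libraries, with log2 fold changes of 0.65 and 0.74. The Ctrl mean at 36.1 kb was 42.0, so that peak passed the filter through sKO and had to be higher there. The last listed peak, at 62.2 kb, scored 55 and 74 against 60 and 57 and overlapped, as did the start. The listed peaks at 2.72 kb (32 and 38 against 30 and 25) and 7.81 kb (27 and 47 against 22 and 25) were lower in both sKO libraries and too low to be tested. Of the 7 listed peaks, 2 were thus higher and 2 lower in both sKO libraries, where 16.7% and 6.84% of all peaks tested were, and 3 of the 7 had a mean too low for the test.

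Upstream of Pax7, the peak at 7.80 kb scored 15 and 34 in Ctrl against 85 and 67 in sKO. Its log2 fold change of 1.69 ± 0.68 stood at percentile 99.9 of all peaks tested and was not called (p 0.013, adjusted p 1.0, limma). It was called higher on equal totals (1.56, adjusted p 0.0361), where 2.51% of all peaks were, as well as after quantile normalisation and in limma without the mean-variance trend. The Ctrl mean was under 50, so this peak passed the filter through sKO. No H4K20me1 peak covered it, and the nearby Pol II S2P peak at 12.4 kb, too low to be tested, scored 19 and 17 against 42 and 26. The peaks at 17.6 kb (21 and 40 against 65 and 26) and 19.1 kb (22 and 44 against 41 and 28) overlapped between genotypes. They were also too low to be tested.

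Past the 3′ end, the summed Pol II S2P score of the 3 short members was higher than over the gene, and Pax7 had no peak within 5 kb. In Ctrl the mean over the 1 kb before the start and the gene was 246 for Myod1 and 75.5 for Myog, with no peak for Myf5, against 973.5, 395.5 and 146.5 in the 5 kb past the end. For Pax7 these means were 315 and 0. The peaks past the end were longer, and per kb of peak the order was not the same in every library. Myod1 had 286 and 226 per kb at the start against 340.0 and 288 past the end in Ctrl, but 223 and 171 against 217 and 156 in sKO. Myog had 115 and 179 per kb at the start against 133 and 164 past the end in Ctrl, and 165 and 103 against 240.2 and 114 in sKO. More signal past the end was common, in 42.4% of 1392 autosomal protein-coding genes under 5 kb with a Pol II S2P peak in either window. The Myog ratio of the 5 kb past the end to the start was 6.02 and 4.74 in Ctrl against 7.53 and 5.74 in sKO, and the groups overlapped. The main Myog peak past the end scored 282 and 338 in Ctrl against 521 and 249 in sKO, with a log2 fold change of 0.22 ± 0.39. Without strand these peaks cannot be assigned: Ppfia4, transcribed towards Myog, ends in the same interval, and 1 of the 3 peaks past Myog was listed with it. Of the 3 peaks past Myf5, 1 was listed with the predicted gene Gm44403 (96 and 69 against 87 and 47). The nearest to Myf5 scored 32 and 14 in Ctrl against 8 and 7 in sKO, too low to be tested.

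The remaining Myog peaks, up to 52.8 kb downstream, overlapped between genotypes. Among the 7 Pol II S2P peaks listed with Ppfia4, 1 was lower in both sKO libraries (100 and 125 against 91 and 92). Of all autosomal Pol II S2P peaks, 64.4% overlapped an H4K20me1 peak. Among those listed with a member, 2 of 7 did for Pax7, 0 of 2 for Myod1 and 0 of 1 for Myog. With the peaks of no gene added, 6 of 16 did for Pax7, 3 of 8 for Myod1, 2 of 9 for Myog and 1 of 2 for Myf5.

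**Figure D4:**
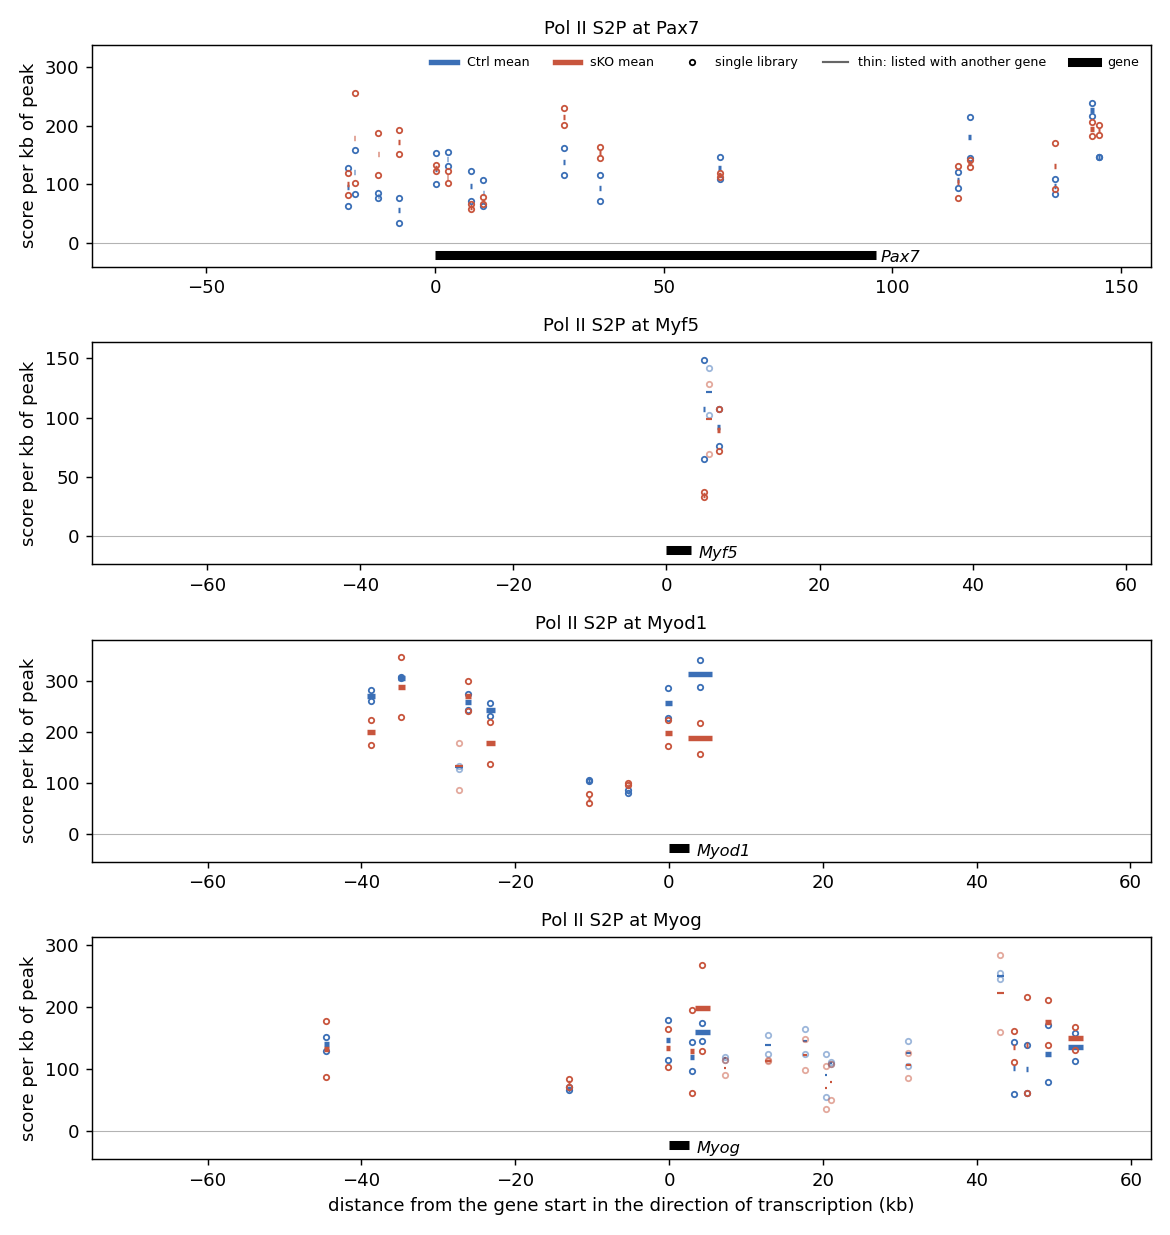
Pol II S2P peaks at the 4 members by distance from the gene start in the direction of transcription (kb), with the score per kb of peak on the vertical axis. Bars span each peak at the mean of 2 libraries, circles are libraries and faint marks are peaks listed with another gene. At Myod1 both sKO circles lie below both Ctrl circles at the start and past the end. The same holds at 3 of its 6 upstream peaks of no gene. At all 9 Myog peaks listed or of no gene the circles overlap. Of the 16 such Pax7 peaks 7 overlap, 5 are higher and 4 lower in both sKO libraries. Of the 16, 8 passed the filter on low values, those at 7.80 kb upstream and 36.1 kb through sKO. Of all 50698 autosomal peaks, 7925 were higher and 3561 lower in both sKO libraries.

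**Figure D5:**
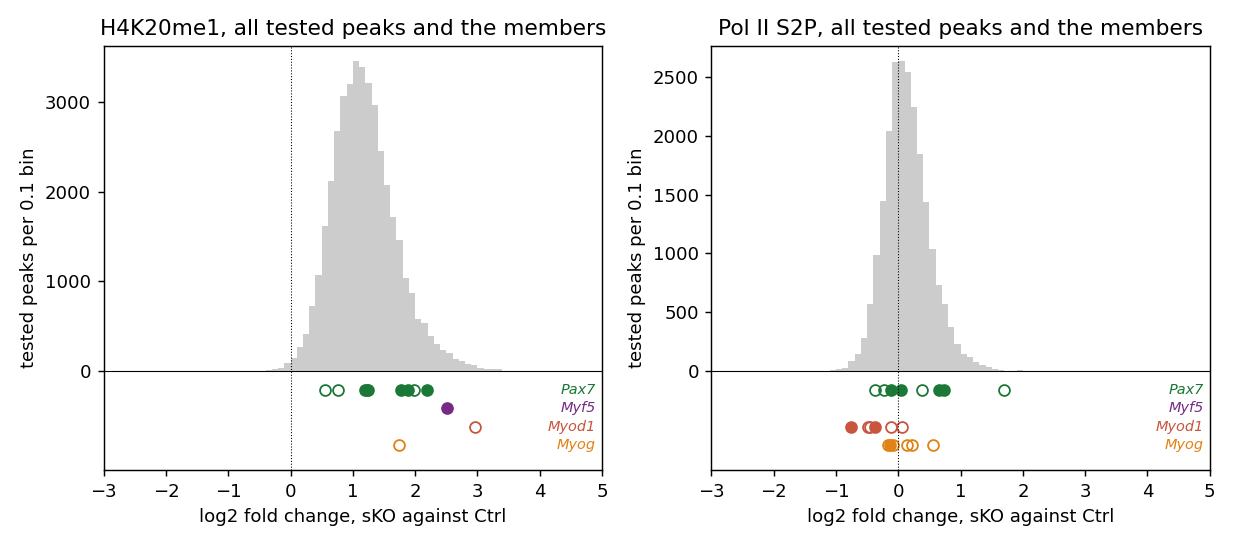
Log2 fold change of sKO against Ctrl for all tested peaks (grey, peaks per bin of 0.1) and for the peaks of each member below the axis, with filled circles for listed peaks and open circles for peaks of no gene. For H4K20me1 all 12 circles lie to the right of 0, with Myf5 and the Myod1 flank in the upper tail; for Pol II S2P the 2 filled Myod1 circles lie to the left and 1 open Pax7 circle far to the right.

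The partners, inhibitors and upstream regulators of these factors were examined as a list of 20 genes. For H4K20me1, 14 had a peak, all were tested, and 11 were called higher and 0 lower, beside 92.3% called higher among all genes, with a median log2 fold change of 1.004 beside 1.11 over all genes. The highest was Snai1, a zinc finger repressor of MYOD1 target sites (80 and 93 against 462 and 450, log2 fold change 2.39), and Mef2c, a partner of the myogenic factors, rose by 2.003. The lowest was Mef2a (2477 and 3144 against 3020 and 3317, 0.18), which was not called, nor were Mef2d (0.48) and the E protein gene Tcf3 (0.38). Pax3, the paralogue of Pax7, was called higher with 0.74. The muscle factor gene Myf6 and the inhibitor genes Id1, Id2 and Id3 had no H4K20me1 peak.

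For Pol II S2P, 14 of the 20 were tested and 0 were called. Id3, an inhibitor that sequesters E proteins, had the lowest log2 fold change (-0.36), with scores of 1567 and 1612 in Ctrl against 1441 and 1061 in sKO. Id2 (133 and 114 against 99 and 103) and the homeodomain factor gene Six4 (246 and 255 against 239 and 197) were also lower in both sKO libraries, so 3 of the 14 were, and 0 were higher in both, beside 4.52% and 9.41% of all genes. The highest was Tcf3 with 0.60 (47 and 57 against 109 and 57). On equal totals Id3 was called lower (-0.50).

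Genes that the myogenic factors activate made a list of 15. Only 5 had an H4K20me1 peak, and 4 of these were called higher (92.3% of all genes were), among them Tnni1, slow troponin I (105 and 121 against 743 and 727, log2 fold change 2.69), Lmod3 (42 and 37 against 175 and 297, 2.50, with a Ctrl mean under 50, so that it passed the filter through sKO and had to be higher) and the acetylcholine receptor subunit gene Chrna1 (2.42). The lowest, Des, encoding desmin, scored 187 and 304 in Ctrl against 250 and 216 in sKO (-0.04) and was not called. For Pol II S2P 10 were tested and 0 called, with a median of 0.07 beside 0.09 over all genes. They ranged from -0.12 for Chrng to 0.62 for Ckm, muscle creatine kinase (123 and 163 against 276 and 173), the 1 gene of this list that was higher in both sKO libraries. No target gene was lower in both sKO libraries.

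The labelled cell type was compared with marker genes. Of 10 further satellite cell markers, 6 had Pol II S2P peaks (Itga7, Vcam1, Sdc4, Met, Itgb1 and Fgfr4), and Calcr, Cdh15, Chodl and Cxcr4 had none. Their log2 fold changes ran from -0.33 (Fgfr4) to 0.31 (Itgb1) with 0 called. For H4K20me1 8 of the 9 tested were called higher, near the 92.3% of all genes, from Itgb1 (0.39, not called) to Vcam1 (2.86). Of 25 markers of fibro-adipogenic and tendon, endothelial, immune, pericyte and smooth muscle, and Schwann cells, 8 had a Pol II S2P peak, and Pdgfra, Cdh5, Kdr, Ptprc and Myh11 were among those with none. Together they summed to 1485 and 1702 in Ctrl against 2137 and 1441 in sKO, most of it at Cd68 (log2 fold change 0.21), and the groups overlapped. Of the 8, only Rgs5 (90 and 69 against 57 and 67) was lower in both sKO libraries, as Myod1 was, and the part of other cells in the member values was not tested. Fewer cells of a type and less signal per cell cannot be told apart in these bulk libraries.

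By list, the Pol II S2P log2 fold changes of those markers were -0.21 for Dpt, 0.17 to 0.31 for Pecam1 and Tek, -0.30 to 0.21 for Cd3e and Cd68, -0.35 for Rgs5 and -0.003 to 0.43 for Mbp and Sox10, with 0 called. For H4K20me1 14 of the 25 were tested and all 14 were called higher, as were 92.3% of all genes. These ran from 1.37 (Pdgfra) to 1.71 (Cd34), from 1.002 (Kdr) to 2.14 (Pecam1), from 1.21 (Itgam) to 1.59 (Ptprc), from 1.13 (Myh11) to 2.47 (Rgs5) and from 1.18 (Sox10) to 2.12 (Mbp). The value of Pax7 (1.59) lay inside the range of these markers.

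Kmt5b itself had 2 Pol II S2P peaks, summing to 24 and 62 in Ctrl against 48 and 22 in sKO, too low to be tested. Its 3 H4K20me1 peaks summed to 1332 and 1740 in Ctrl against 1934 and 2196 in sKO, with a log2 fold change of 0.44 ± 0.27 that was not called. Neither antibody reads the deletion of the gene, so these values do not check the labels. Without Ctrl replicate 2 Kmt5b was called higher (0.63), and on equal totals it was called lower (-0.54).

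The genes whose values were most like those of Pax7 over the 8 libraries, by the root mean square difference of log2(score per kb + 1), were Gm10863 (0.0731), Map1a (0.0780) and Paox (0.0789). The median over the 5848 genes tested for both antibodies was 0.438. Myf5, Myod1 and Myog lacked a value for 1 antibody and were not compared in this way.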

How the data were processed

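H4K20me1 and Pol II S2P CUT&RUN of MuSCs was analysed in 8 libraries, 2 per genotype and antibody. The members and gene lists were chosen with earlier results of these data known. Per the labels and methods, the authors trimmed reads with Trimmomatic 0.39, aligned them to mm10 (GRCm38) with STAR 2.7.3a, removed duplicates with Picard 2.21.7 and deposited, per union peak, a whole-number score (spike-in normalised coverage) and the fraction of the peak inside the listed gene. The submitters' processing notes also name SICER 0.0.41 and MACS2 2.1.1. The scale between libraries rests on the spike-in and was not checked.

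Scores were summed per gene identifier. For each antibody, all autosomal genes or peaks with a mean over 50 were fitted with limma 3.58.1 (R 4.3.3, with a mean-variance trend) on log2(score + 1), comparing the genotypes. A call needed an adjusted p (Benjamini-Hochberg) below 0.1 together with a log2 difference beyond 0.5 in either direction, the limits the study used, and X and Y were left out. Low scores have their change understated on this scale. Scores are not counts, so no count model was fitted and no counting interval is given. The SE and p-values rest on a spread between the deposited replicates that limma pools over features of similar score. They therefore do not measure the spread of a single gene or peak alone. The fit was tested on simulated data with 200 changed features. Ratios were compared by exact permutation (scipy 1.17.1). The named genes were the members, Kmt5b, genes listed with a peak within 50 kb of a member, those with the highest and lowest values or not called in each list, and the 3 genes most like Pax7. Distances run from the centre of the peak to the gene start. A few further list genes were named after their values were seen, as were the windows past the gene end.

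Alternatives were equal totals, quantile normalisation, a pseudocount of 10, no filter, no trend, a replicate block, peaks at least 0.5 inside the gene, unlisted peaks added, and each library left out. Values of some listed marker genes are not reported here.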

Additional observations from a re-analysis of the deposited data

How the results depend on the processing

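Most calls kept their direction and side of the threshold. Of the members' genes, 2 were called higher for H4K20me1, and 1 when only peaks lying mostly in the gene were summed (Myf5 then had no value) or 4 when unlisted peaks were added. The 2 genes so added, Myod1 and Myog, had a value through 1 flank peak each. The Ctrl means of both peaks were under 50, so they passed the filter through sKO and had to be higher there. Over all genes, 12690 of 13750 were called higher. With peaks lying mostly in the gene 10230 of 11125 were, and with unlisted peaks added 12692 of 13752. Of the members' 12 H4K20me1 peaks, 6 were called higher on equal totals and 5 after quantile normalisation, which called 1 lower. Of all 40902 peaks tested, 9244 were called higher on equal totals, and quantile normalisation called 4738 higher and 4746 lower. For Pol II S2P, 1 gene was called lower on equal totals and 1 after quantile normalisation, and with only peaks lying mostly in the gene Myod1 and Myog had no value. Of all 8531 genes tested, 73 were called lower on equal totals and 29 after quantile normalisation. For Pol II S2P peaks, 1 was called higher on equal totals, 1 after quantile normalisation and 1 without the trend, while 3 were called lower on equal totals and 1 after quantile normalisation. Of all 22353 peaks tested, 561, 474 and 35 were called higher in these settings. Called lower were 267 on equal totals and 153 after quantile normalisation. The cause was not tested.

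On equal totals and after quantile normalisation, H4K20me1 changes turned negative for Kmt5b (-0.54 and -0.57), Itgb1 (-0.59 and -0.53), Mef2a (-0.80 and -0.74) and the Pax7 upstream peaks at 53.1 kb (-0.43 and -0.42) and 34.1 kb (-0.21 and -0.55). Quantile normalisation alone turned Kdr (-0.26), Sox10 (-0.10) and the Pax7 peak at 70.7 kb (-0.13). Pol II S2P turned for Pax7 on equal totals (-0.0036) and for Myog with unlisted peaks added (0.17).

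With each library left out, ranges that crossed 0 were -0.39 to 0.31 for H4K20me1 at Des, and for Pol II S2P -0.052 to 0.32 at Pax7, -0.47 to 0.20 at Myog, -0.69 to 0.10 at Cd3e, -0.11 to 0.53 at Cd68, -0.52 to 0.29 at Chrng, -0.57 to 0.14 at Dpt, -0.058 to 0.053 at Mbp, -0.23 to 0.57 at Pecam1, -0.10 to 0.73 at Tek, -0.31 to 0.75 at the Myog peak at 4.29 kb and -0.019 to 0.56 for the log2 ratio of Pax7 to Myog. The lone library is then assumed to vary like the other genotype. None of these was called on the deposited scale.

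Deviations of same-numbered libraries correlated at 0.041 (H4K20me1) and -0.043 (Pol II S2P) over genes. A correlation over genes leaves out shifts of a whole library, so it cannot show whether same-numbered libraries were prepared together. With a replicate block, H4K20me1 calls covered 2 member genes and 12 member peaks, Pol II S2P calls 0 of either, and 0 of all Pol II S2P peaks passed, in place of 10 higher and 1 lower. For H4K20me1 the block called 12718 of all 13750 genes and 37006 of all 40902 peaks higher. The window past the gene end was set after seeing the data, and with 2 or 10 kb in place of 5 kb, 24.1% or 54.7% of short genes had more signal there. With 2 libraries a group and no read depth, small differences were not detectable.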
